A study of Mus musculus with 4 samples.

Results

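The family described here consists of 3 mouse microRNAs, mmu-miR-148a, mmu-miR-148b and mmu-miR-152 (miR-148a, miR-148b and miR-152 below), each cut from its own gene. Its members were taken by name from the reads of small RNA libraries, keeping reads that match 1 miRNA, on the mature arm and on the star arm, the less abundant partner strand by name. Of 628 miRNA arms with reads, 5 belong to the family: miR-148a, miR-148b, miR-152, miR-148b* and miR-152*. The star arm of miR-148a had 0 reads in all libraries. All 5 were among the 310 arms that passed the filter on low counts.

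The libraries come from NIH-3T3, a long-established line of fibroblasts from mouse embryos, grown to confluency. One group was given thapsigargin at 500 nM in the medium for 24 h, and the other was left untreated. Thapsigargin inhibits SERCA, the pump that keeps calcium inside the endoplasmic reticulum, and thereby causes endoplasmic reticulum stress. Each group holds 2 libraries. The labels name no vehicle for the controls or the culture each replicate came from, so p-values here reflect the spread among these libraries alone, possibly a technical one. In such bulk samples a change in RNA per cell cannot be told apart from a change in the cells that contribute.

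A microRNA finds its target mRNAs mainly through its seed, bases 2 to 8, and miRNAs with the same seed share most predicted targets. The members of this family are known as repressors of DNA methyltransferase mRNAs, with Dnmt1 the best known target of miR-148a and miR-152 and Dnmt3b a target of miR-148. miR-148a is the abundant member in liver, where it acts in lipid metabolism, and all members have been described as restraining the growth of tumour cells. miR-148b and miR-152 are hosted by genes of the coatomer zeta subunit, part of the COPI coat that carries vesicles from the Golgi back to the endoplasmic reticulum.

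The RefSeq mature sequences are shown because the family is defined by them and because few bases tell the members apart. The seed is in capitals.
mmu-miR-148b-3p: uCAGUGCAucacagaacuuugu
mmu-miR-152-3p: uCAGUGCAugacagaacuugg
mmu-miR-148a-3p: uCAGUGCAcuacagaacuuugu

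Counted from the 5′ end, miR-148a differs from miR-148b by U9C and C10U. miR-152 differs from miR-148b by C10G and U20G and ends 1 base earlier. Between miR-148a and miR-152 the differences are C9U, U10G and U20G. Of 1679 mouse mature sequences in RefSeq, only these 3 hold the seed, and all of them had reads. The star arms, from the 5′ side of the hairpins, are shown with their bases 2 to 8 in capitals, since miR-152* outnumbered its partner in 3 of 4 libraries.
mmu-miR-148b-5p: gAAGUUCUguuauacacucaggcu
mmu-miR-152-5p: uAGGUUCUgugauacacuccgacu
mmu-miR-148a-5p: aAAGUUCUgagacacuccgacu

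On this arm miR-148a and miR-148b share a seed and miR-152 has another. In the GRCm38.p6 build, miR-148b-3p lies at chr15:103285185-103285206 on the plus strand, in an intron of Copz1, with 248 kb between its hairpin gene and Hoxc4. miR-152-3p lies at chr11:96850439-96850459 on the plus strand, in an intron of Copz2, 482 kb from Hoxb1. Both hairpins are on the strand of their host gene and touch none of its exons. miR-148a-3p lies at chr6:51269829-51269850 on the minus strand with no host gene. The deposited files carry no coordinates used here, so these positions belong to the RefSeq annotation.

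Between 2685965 and 5570971 reads per library were assigned to 1 arm. Of 7 fibroblast and mesenchymal marker miRNAs, 6 had counted reads and passed the filter, which include miR-10b and miR-143. The other, miR-199a-3p, had no counted reads. Reads that match more than 1 miRNA were left out, so its absence from the cells does not follow. Epithelial markers summed to 7 and 3 reads in the thapsigargin libraries and 2 and 1 in the controls, and the liver marker miR-122 had 1 and 1 reads with thapsigargin and 0 and 0 in the controls. Embryonic stem cell markers had 4 and 2 reads with thapsigargin and 0 and 2 in the controls, and muscle markers had 2 and 0 reads with thapsigargin and 1 and 0 in the controls. Blood markers summed to 599 and 180 reads with thapsigargin and 430 and 353 in the controls, of which miR-155 gave 598 and 178 with thapsigargin and 430 and 350 in the controls. Neuron markers summed to 209 and 74 reads with thapsigargin and 155 and 95 in the controls, of which miR-128 gave 208 and 73 with thapsigargin and 153 and 94 in the controls. The part of these markers in the results was not tested.

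Control replicate 1 stands apart from the other 3 libraries by the first base of its reads. Of 99 arms with at least 100 reads in every library, 97 began mostly at the RefSeq start in control replicate 1, against 1 arm in each other library, where 96, 96 and 97 arms began 1 base later. Shares, arm ratios, read ends and differences that rest on this library are therefore also given, where they moved, with its reads shortened by their first base and assigned as the same reads in the other libraries. The shortening takes reads of 18 nt, the shortest in the files, below the range of the other libraries, and they were dropped.

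miR-148b gave most of the family's reads in these fibroblasts. It had 5894 and 1803 reads in the thapsigargin libraries, against 5843 and 4687 reads in the controls. It made up 82.6% (exact 95% interval 81.7 to 83.5) and 87.7% (86.2 to 89.1) of the family's mature reads with thapsigargin, against 81.7% (80.7 to 82.6) and 86.3% (85.4 to 87.2) in the controls. The 2 libraries of each group differed by more than the groups did, and the intervals, like all intervals and floors here, cover counting error only. On average miR-148b held 85.2% ± 3.61 with thapsigargin and 84.0% ± 3.29 in controls (SD, n = 2 each), a difference that an exact two-sided permutation test did not separate (p = 0.667). The smallest p that 2 against 2 libraries can give is 0.33. These are shares of reads, and how evenly the library kit captures the 3 sequences was not tested.

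miR-152 was the second member, with 1222 and 244 reads in the thapsigargin libraries and 1302 and 735 in the controls. It held 17.1% and 11.9% of the family's mature reads with thapsigargin, against 18.2% and 13.5% in the controls. That is 4.82 and 7.39 reads of miR-148b for each read of miR-152 with thapsigargin, and 4.49 and 6.38 in the controls. The mean miR-152 share was 14.5% ± 3.72 with thapsigargin and 15.9% ± 3.30 in controls (SD, n = 2 each; exact permutation p = 0.667). With the reads of control replicate 1 shortened, its miR-152 share was 13.8%, close to the 13.5% of control replicate 2, and the difference between the groups turned to 0.828 percentage points. Shortening dropped reads of 18 nt. Whether the other libraries lack such short miR-152 reads for their length was not tested. Among reads that match the RefSeq hairpin without mismatch, miR-152 held 27.9% and 20.2% with thapsigargin and 42.0% and 13.995% in the controls. In these reads miR-148b held 71.2% and 77.8% with thapsigargin and 57.4% and 85.6% in the controls, and miR-148a 0.939% and 1.94% with thapsigargin and 0.531% and 0.397% in the controls. miR-148b remained the largest in each library, and the miR-152 share of control replicate 1 was the highest of the 4. Of the 634 such miR-152 reads in control replicate 1, 360 were a single sequence of 18 nt. This subset also leaves out reads ending in bases that the hairpin does not hold. In each library these were a larger part of miR-148b than of miR-152, so the subset shares depend on read ends too.

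miR-148a was close to the limit of these libraries, with 17 and 8 reads with thapsigargin and 10 and 8 in the controls. Its share of the family was 0.238% (exact 95% interval 0.139 to 0.381) and 0.389% (0.168 to 0.766) with thapsigargin, against 0.140% (0.0670 to 0.257) and 0.147% (0.0636 to 0.290) in the controls. Both thapsigargin shares lie above both control shares, but the intervals overlap and the exact permutation p of 0.33 is the smallest possible. The difference of 0.170 percentage points was 0.0948 without thapsigargin replicate 2. Per read of miR-148a there were 347 and 225 reads of miR-148b with thapsigargin and 584 and 586 in the controls. On the same terms, 0 reads of miR-148a* allow at most 0.484 and 1.57 CPM (counts scaled to library size) with thapsigargin and 0.554 and 0.917 CPM in the controls, from a floor of 3 counts.

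The family as a whole took 0.128% and 0.0765% of all arm reads with thapsigargin, and 0.186% and 0.149% in the controls. Levels below are CPM scaled by TMM, which corrects for a few very abundant miRNAs. By mean level over the 4 libraries miR-148b ranked 42nd of 310 arms, miR-152* 81st, miR-152 91st, miR-148b* 162nd and miR-148a 293rd. The neighbours of the mature members in this order are named for scale. They are close in level by the way they were chosen, so no difference from them was tested. The libraries of miR-148b overlapped those of let-7g, one place above with a mean of 1213 CPM, and of miR-103, one place below with 1091 CPM. miR-152 lay among miR-421 (199 CPM) and miR-423-5p (191 CPM), and miR-148a among miR-3086-5p (2.85 CPM) and miR-1933-3p (2.78 CPM).

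**Figure D1:**
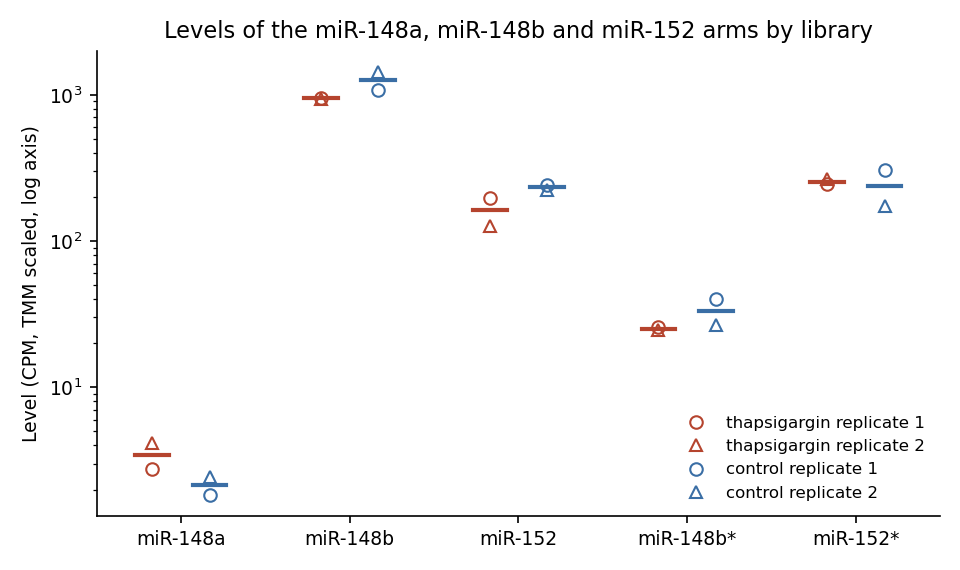
Level of each family arm in each library in TMM-scaled CPM on a log axis, with thapsigargin in red on the left and control in blue on the right of each pair; circles are replicate 1, triangles replicate 2 and bars the group mean. miR-148b stands at 942 to 1433 CPM, miR-152 and miR-152* between 128 and 305 CPM, miR-148b* at 24.6 to 40.3 CPM and miR-148a at 1.85 to 4.18 CPM.

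The comparison of thapsigargin with control asks whether the family moves after calcium is lost from the endoplasmic reticulum. No member passed the quasi-likelihood test of edgeR (Benjamini-Hochberg adjusted). Of all 310 arms tested, 0 (0%) were called at an adjusted p of 0.05, and without the filter 3 of 628 (0.478%), none of the family. The count with an unadjusted p under 0.05 was 12 (3.87%), and DESeq2 called 0 of 628 arms, with 18 (2.87%) at an unadjusted p under 0.05. The smallest adjusted p over all arms was 0.259, and the median standard error of a log2 fold change was 0.60.

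miR-148b had 952 and 942 CPM in the thapsigargin libraries, against 1080 and 1433 CPM in the controls. Both thapsigargin libraries lie below both controls, and the controls lie further apart than the thapsigargin libraries. The means were 947 ± 6.73 CPM with thapsigargin and 1257 ± 250 CPM in controls (SD, n = 2 each), a log2 fold change of -0.41 (SE 0.44, edgeR adjusted p = 0.987). Over all alternatives the value stayed between -0.70 and -0.22, with adjusted p from 0.642 to 0.998, and it was -0.22 without control replicate 2.

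For miR-152 the levels were 197 and 128 CPM with thapsigargin and 241 and 225 CPM in the controls. In reads as deposited the thapsigargin libraries again lie below both controls, and here it is the thapsigargin pair that lies apart. The means were 162 ± 49.4 CPM with thapsigargin and 233 ± 11.2 CPM in controls (SD, n = 2 each), a log2 fold change of -0.52 (SE 0.51, edgeR adjusted p = 0.987). With control replicate 1 reads shortened the log2 fold change was -0.28, and it was -0.91 without thapsigargin replicate 1 and -0.22 without thapsigargin replicate 2.

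The rarest member, miR-148a, had 2.75 CPM (exact Poisson 95% interval 1.60 to 4.40) and 4.18 CPM (1.8 to 8.24) with thapsigargin, against 1.85 CPM (0.886 to 3.40) and 2.45 CPM (1.06 to 4.82) in the controls. It is the only mature member whose thapsigargin libraries lie above both controls, and the counting intervals of all 4 libraries overlap. It passed the filter on low counts through its thapsigargin libraries, so its presence among the tested arms is not independent of the difference. Summed to 25 reads with thapsigargin and 18 in controls, the scaled ratio was 1.49 with a counting interval of 0.780 to 2.89. The fitted log2 fold change was 0.65 (SE 0.66, edgeR adjusted p = 0.987), and 0.38 without thapsigargin replicate 2.

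Among all 310 arms, 104 (33.5%) had libraries that did not overlap between the groups, 50 (16.1%) with thapsigargin below and 54 (17.4%) with thapsigargin above. In the family 4 of 5 arms did not overlap, namely miR-148b, miR-152 and miR-148b* with thapsigargin below and miR-148a with thapsigargin above. Because miR-148a passed the filter through its thapsigargin libraries, its place in this count is not independent of its direction. The count uses reads as deposited. With its reads shortened, control replicate 1 had 933 miR-152 reads in place of 1302, and overlap of miR-152 in that setting was not tested. The 2 arms of the miR-148b hairpin come from 1 transcript and are not separate observations. The median log2 fold change over all arms was -0.01 with TMM and -0.36 when scaled by total reads alone. Under that scaling miR-148b was at -0.70, miR-152 at -0.80 and miR-148a at 0.33, and relative to the median of all arms the directions were kept.

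Summed as 1 feature, the mature reads of the family had 1159 and 1082 CPM with thapsigargin and 1308 and 1655 CPM in the controls. The thapsigargin libraries lie below the controls. The log2 fold change was -0.40 (SE 0.44, edgeR adjusted p = 0.985), close to that of miR-148b, which supplies most of the reads, and it was -0.28 without control replicate 2. The authors' deposited table of 324 miRNAs gives log2 fold changes of -0.47 for miR-148b (p = 0.481), -0.57 for miR-152 (p = 0.393) and 0.58 for miR-148a (p = 0.549), each with an adjusted p of 1. Only the mature members were taken from that table.

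**Figure D2:**
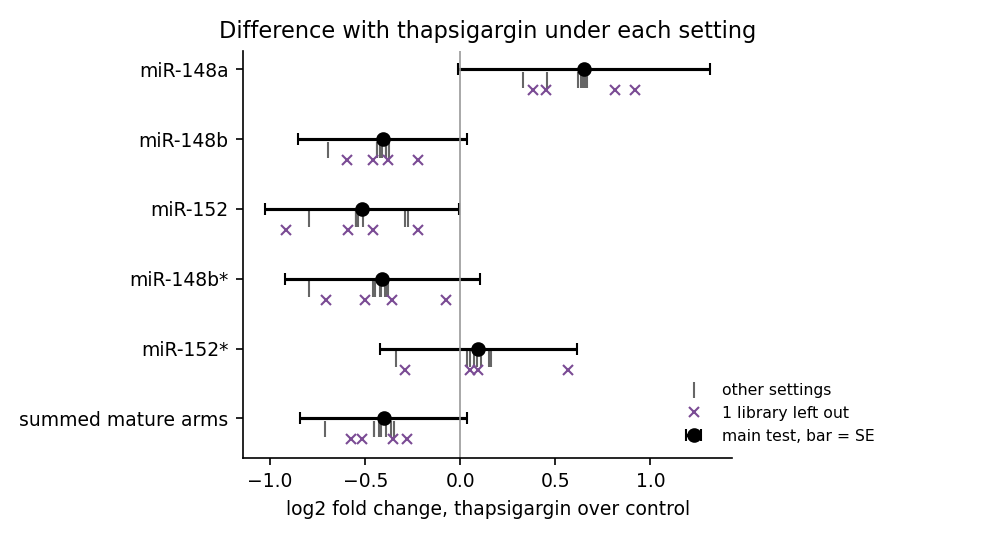
Log2 fold change of thapsigargin over control for each family arm and for the summed mature arms; black points with bars are the edgeR estimate and its SE, grey ticks other settings and purple crosses fits with 1 library left out. The values of miR-148b, miR-152, miR-148b* and the sum stay below 0, those of miR-148a above 0, and those of miR-152* lie on both sides from -0.34 to 0.56.

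Whether 1 paralogue moved apart from the others was tested by edgeR's test of arm usage within seed families. The family had an unadjusted p of 0.209 and an adjusted p of 0.980, and 0 of 22 seed families (0%) were called, also 0 at an unadjusted p under 0.05. Relative to its family miR-148a stood at 1.07 on the log2 scale, with an edgeR p of 0.204 and an adjusted p of 0.997. It had 8 to 17 reads a library and passed the filter through its thapsigargin libraries. The family p and the miR-148a p are thus not independent of that selection. Without the filter the edgeR p was 0.365 for the family and 0.238 for miR-148a. miR-148b stood at 0.01 and miR-152 at -0.09. Those last values turned to -0.02 and 0.10 with the shortened reads.

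The star arms set the hairpins apart. miR-152* had 1519 and 507 reads with thapsigargin and 1650 and 565 in the controls, more than miR-152 in 3 of 4 libraries. It made up 55.4% (exact 95% interval 53.5 to 57.3) and 67.5% (64.0 to 70.9) of the hairpin's arm reads with thapsigargin, against 55.9% (54.1 to 57.7) and 43.5% (40.7 to 46.2) in the controls. Control replicate 2 is the 1 library in which miR-152 exceeded miR-152*, and thapsigargin replicate 1 lies within the range of the controls. In reads of miR-152* per read of miR-152 the values were 1.24 and 2.08 with thapsigargin and 1.27 and 0.769 in the controls. With shortened reads control replicate 1 had 1651 reads of miR-152* and 933 of miR-152, a share of 63.9% (exact 95% interval 62.0 to 65.7) and a ratio of 1.77. As deposited, 28.4% of its miR-152 reads were 18 nt, the shortest in the files. In the libraries whose reads begin 1 base later the same form would be too short to be counted. Whether miR-152 was undercounted there was not tested.

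miR-148b* was the minor arm throughout, with 160 and 47 reads with thapsigargin and 218 and 87 in the controls. Its share of the hairpin was 2.64% (exact 95% interval 2.25 to 3.08) and 2.54% (1.87 to 3.36) with thapsigargin, against 3.6% (3.14 to 4.1) and 1.82% (1.46 to 2.24) in the controls. Both thapsigargin shares fall between the control shares. Thus miR-152* outnumbered miR-148b* by 9.49 and 10.8 reads to 1 with thapsigargin and 7.57 and 6.49 to 1 in the controls, the reverse of the order on the mature arm. With shortened reads control replicate 1 had a miR-148b* share of 3.62%. With both arms added, the miR-148b hairpin gave 2.21 and 2.46 reads per read of the miR-152 hairpin with thapsigargin and 2.05 and 3.67 in the controls, where control replicate 1 had 2.33 with shortened reads.

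Of 78 hairpins with exactly 2 tested arm names, miR-152 ranked 7th by the mean share of its second arm, at 55.6%. The second arm is the one named as star, in 64 hairpins, and otherwise the one with fewer reads. Where it was chosen by reads it is the minor arm in summed reads by construction, so the order mixes both kinds. The second-arm share of miR-148b was 2.65%, rank 48, and the median hairpin had 4.24%. The second arm held more than 50% in 9 of 78 hairpins. The hairpins of miR-140, miR-145 and miR-322 have 3 tested names and entered no arm ratio test. With their star names added, miR-152 ranked 8th of 81, miR-148b ranked 51st, and 11 hairpins lay above 50%. No change of arm ratio was called in any of the 78 (0%), with 8 (10.3%) at an unadjusted p under 0.05, while 27 (34.6%) had arm shares that did not overlap between the groups. The ratio of miR-152* to miR-152 had a log2 change of 0.61 (edgeR adjusted p = 0.813), which was 0.39 with the shortened reads and lay between 0.27 and 1.02 when single libraries were left out. The lowest was without thapsigargin replicate 2 and the highest without control replicate 1. For miR-148b* over miR-148b the log2 change was -0.0014 (edgeR adjusted p = 0.997).

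In level, miR-152* had 245 and 265 CPM with thapsigargin and 305 and 173 CPM in the controls. The thapsigargin libraries fall between the controls, and the log2 fold change was 0.09 (SE 0.52, edgeR adjusted p = 0.987). Without control replicate 2 it was -0.29 and without control replicate 1 it was 0.56. miR-148b* had 25.8 and 24.6 CPM with thapsigargin and 40.3 and 26.6 CPM in the controls, a log2 fold change of -0.41 (SE 0.51, edgeR adjusted p = 0.987) that was -0.07 without control replicate 1, -0.71 without control replicate 2 and -0.79 when scaled by total reads.

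**Figure D3:**
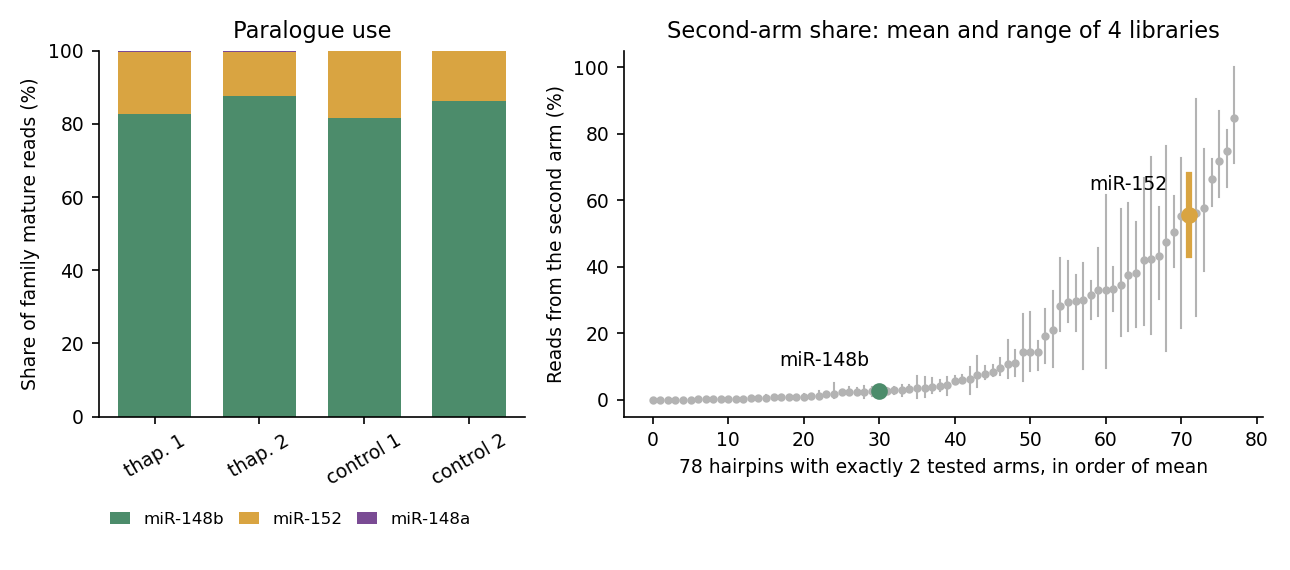
Left, share of the family's mature reads (%) from each paralogue in each library. Right, share of reads from the second arm (%) in 78 hairpins with exactly 2 tested arms, ordered by their mean, with points for the mean of 4 libraries and lines for the range. miR-148b fills 81.7% to 87.7% of each bar, and miR-152 lies near the upper end of the hairpins at 55.6% while miR-148b lies at 2.65%.

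The commonest reads of 4 arms are shown because most of them differ from RefSeq at the 5′ end, the 3′ end or both. Capitals here mark 3′ bases that the RefSeq hairpin does not hold.
miR-148b, read 1: cagtgcatcacagaactttgtTT
miR-148b, read 2: tcagtgcatcacagaactttgtTT
miR-148b, read 3: cagtgcatcacagaactttgtT

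The first of these had 2980 and 1039 reads with thapsigargin and 4 and 1343 in the controls. The second, which is the first with the RefSeq 5′ base before it, had 0 and 0 reads with thapsigargin and 3407 and 0 in the controls. Control replicate 1 alone holds the longer form. The third had 1403 and 375 reads with thapsigargin and 4 and 1369 in the controls.
miR-152, read 1: cagtgcatgacagaacttgg
miR-152, read 2: tcagtgcatgacagaact
miR-152, read 3: cagtgcatgacagaacttggT

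The commonest miR-152 read had 380 and 40 reads with thapsigargin and 0 and 218 in the controls. The short second read had 1 and 0 reads with thapsigargin and 360 and 0 in the controls. Read 3, with 1 base added to the commonest, had 196 and 24 reads with thapsigargin and 0 and 94 in the controls.
miR-148a, read 1: cagtgcactacagaactttgtc
miR-152*, read 1: aggttctgtgatacactccgact
miR-152*, read 2: taggttctgtgatacactccgact
miR-152*, read 3: ggttctgtgatacactccgact

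The commonest read of miR-148a had 8 and 3 reads with thapsigargin and 0 and 5 in the controls, and it ends in the next base of the hairpin rather than in an added one. For miR-152* the first read had 1036 and 382 reads with thapsigargin and 519 and 398 in the controls, the second 0 and 0 with thapsigargin and 1069 and 0 in the controls. The third had 404 and 104 reads with thapsigargin and 0 in control replicate 1, of 656 over the 4 libraries. All 3 miR-152* reads end at the same base and differ at the 5′ end.

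At the 5′ end, 99.6% and 99.8% of miR-148b reads with thapsigargin began 1 base after the RefSeq start, against 0.188% and 99.9% in the controls. In control replicate 1, 99.7% began at the RefSeq start itself, and for miR-152 all 1302 reads of that library did so. Within a library nearly all reads of these 2 mature arms thus had 1 start. Of the 99 abundant arms, 97 in control replicate 1 and 96 or 97 in each other library mostly had that same start, so it is not particular to the family. miR-152* had 2: 70.6% and 77.9% of its reads began 1 base after the RefSeq start and 29.0% and 22.1% began 2 bases after it with thapsigargin, while in control replicate 2 these shares were 72.2% and 27.8%. In control replicate 1 the starts were 1 base earlier, with 66.4% at the RefSeq start and 33.5% 1 base after it. The earlier of the 2 starts thus held 66.4% to 77.9% of the reads in each library. The RefSeq start share of miR-152 differed by -49.9 percentage points between the groups only through control replicate 1, and by 0.0282 with its reads shortened.

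Mean read length of miR-148b was 22.3 and 22.5 nt with thapsigargin, against 23.4 and 21.9 nt in the controls. The controls lie on both sides of the thapsigargin libraries, whose mean was 22.4 ± 0.0936 nt against 22.7 ± 1.07 nt in controls (SD, n = 2 each; exact permutation p = 1). Shortening the reads of control replicate 1 brought its mean to 22.5 nt and turned the difference to 0.20 nt. miR-152 measured 20.9 and 21.2 nt with thapsigargin and 20.9 and 21.1 nt in the controls, with means of 21.1 ± 0.205 nt with thapsigargin and 21.0 ± 0.0889 nt in controls (SD, n = 2 each; exact permutation p = 0.667). miR-148a measured 21.7 and 21.2 nt with thapsigargin and 22.5 and 21.4 nt in the controls, from 8 to 17 reads a library.

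miR-152 is the member whose mean length was not higher in control replicate 1, where reads began 1 base earlier than in the other libraries. Over the 99 abundant arms the median gap of that library to the mean of the others was 0.985 nt. miR-148b had a gap of 1.2 nt, miR-152* one of 0.925 nt and miR-152 one of -0.147 nt. In the same library 370 of the 1302 miR-152 reads were 18 nt long, a share of 28.4% (exact 95% interval 25.98 to 30.95), and control replicate 2 had 2 such reads (0.272%). The thapsigargin libraries had 11 (0.900%) and 6 (2.46%). This share ranked 3rd of 99 arms in control replicate 1, where the median arm had 0.140%. Since the files hold no read under 18 nt, these reads less their first base would fall outside the range, and shortening left 933 miR-152 reads against 5811 of miR-148b in this library. Those 933 shortened reads had a mean of 21.1 nt, beside 20.9 and 21.2 nt with thapsigargin and 21.1 nt in control replicate 2. The lower mean as deposited thus went with the 18-nt reads.

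**Figure D4:**
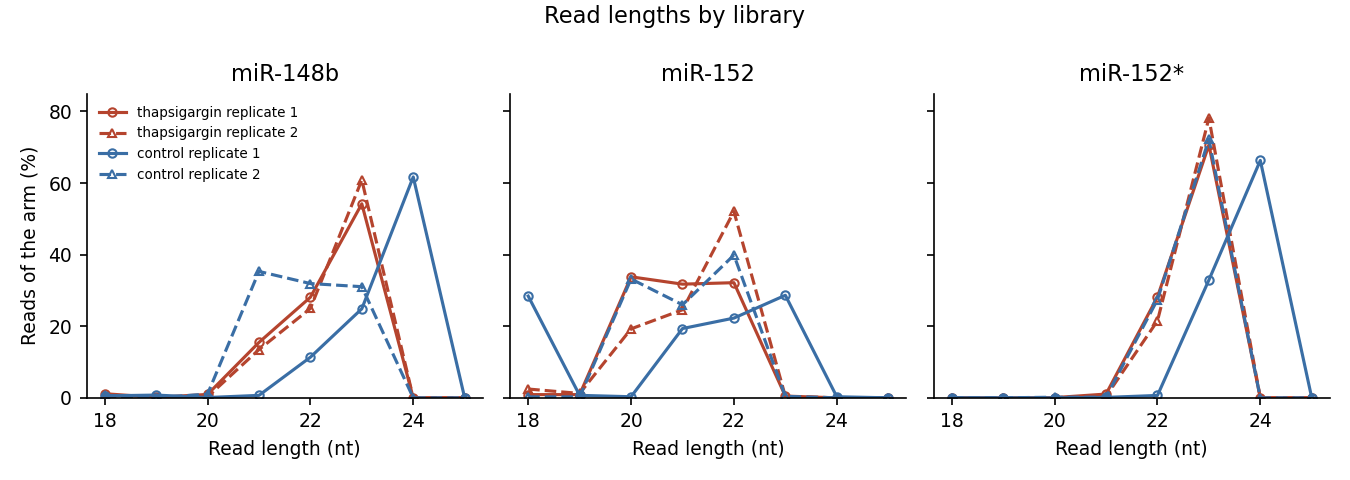
Share of each arm's reads (%) by read length in nt, 1 line per library, with thapsigargin in red and control in blue. The line of control replicate 1 lies 1 nt to the right of the thapsigargin lines for miR-148b and of all other lines for miR-152*. For miR-152 it also has 28.4% of its reads at 18 nt. Control replicate 2 has another shape for miR-148b, with its peak at 21 nt (35.3%).

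Most mature reads of miR-148b, and of miR-152 except in control replicate 1, ended in bases that the RefSeq hairpin does not hold. Such an end, up to 4 nt long, is called a 3′ tail here. The share of tailed reads was chosen as a quantity after the reads were seen. The tail share of miR-148b was 79.2% (exact 95% interval 78.1 to 80.2) and 82.6% (80.8 to 84.3) with thapsigargin, against 83.5% (82.5 to 84.4) and 61.2% (59.8 to 62.6) in the controls. Control replicate 2 is the low library, and the other 3 lie within 5 percentage points. The means were 80.9% ± 2.42 with thapsigargin and 72.3% ± 15.8 in controls (SD, n = 2 each; exact permutation p = 1), and the difference without control replicate 2 was -2.59 percentage points.

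Tails of 2 thymines (uracil in the RNA) made up the largest tail class of miR-148b in all libraries but control replicate 2, at 50.7% and 57.8% of its reads with thapsigargin and 58.5% and 28.7% in the controls. A single thymine ended 23.9% and 20.8% of reads with thapsigargin and 21.2% and 29.3% in the controls. Adenine tails were rare, at 1.24% to 1.8% of reads over the 4 libraries.

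On miR-152 the tail share was 61.0% (exact 95% interval 58.2 to 63.8) and 67.6% (61.4 to 73.5) with thapsigargin, against 49.1% (46.3 to 51.8) and 59.3% (55.7 to 62.9) in the controls. The thapsigargin libraries lie above both controls, at 64.3% ± 4.65 with thapsigargin and 54.2% ± 7.24 in controls (SD, n = 2 each; exact permutation p = 0.33, the smallest possible). The difference of 10.1 percentage points lay between 5.02 without control replicate 1 and 15.3 without control replicate 2. With control replicate 1 reads shortened, which removes its 18-nt reads, that library had 68.5% and the groups overlapped, with a difference of 0.431 percentage points. Its tails were more mixed than those of miR-148b. A single thymine made up 20.4% and 20.5% of reads with thapsigargin and 14.98% and 24.1% in the controls, and 1 adenine 17.3% and 13.5% with thapsigargin and 13.1% and 10.9% in the controls. A thymine followed by an adenine ended 10.2% and 14.8% of reads with thapsigargin and 8.29% and 12.1% in the controls.

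Of the 99 abundant arms miR-148b ranked 4th by mean tail share, at 76.6%, and miR-152 ranked 7th, at 59.3%, against a median arm of 8.39%. The star strand of miR-152 was at 0.841%, rank 93, so the arms of 1 hairpin lie near both ends of this order. miR-148b* had 0 tailed reads of 160 and 0 of 47 with thapsigargin, which allows shares of up to 2.28% and 7.55% (upper bounds of the exact 95% interval), and 0.459% and 0% in the controls. miR-148a had 0 and 0 tailed reads with thapsigargin and 1 and 0 in the controls. The RefSeq hairpins come from the reference strain, and whether NIH-3T3 cells have the same bases there was not tested.

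**Figure D5:**
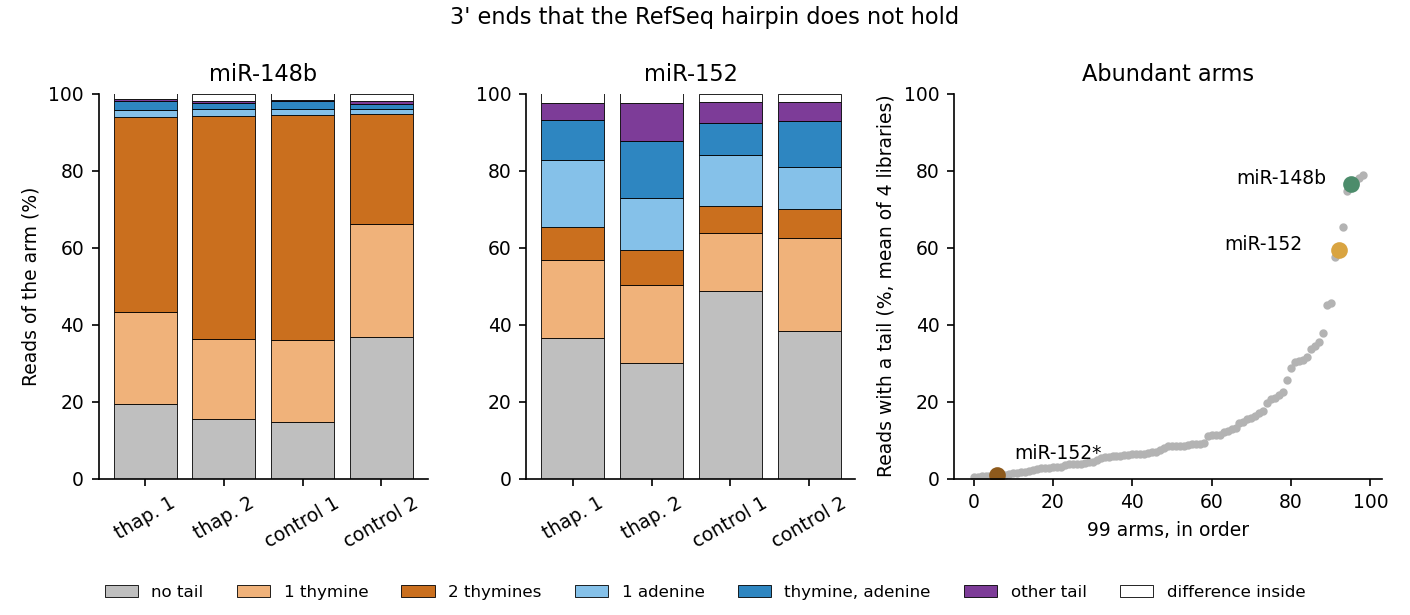
Left and middle, share of miR-148b and miR-152 reads (%) by 3′ end in each library, where a tail is an end that the RefSeq hairpin does not hold. Right, mean share of tailed reads (%) in 99 abundant arms in order. Tails of 2 thymines are the largest class of miR-148b in all libraries except control replicate 2, miR-152 has more adenine, and miR-152* lies at 0.841%.

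Arms whose levels over the 4 libraries most resembled the members were sought by distance between centred log2 CPM, among arms with a mean of at least 50 reads. For miR-148b these were miR-497 (0.127), miR-615-3p (0.159) and miR-181c* (0.186), against a median distance of 1.04 over 196 arms. For miR-152 they were let-7b (0.243), miR-34c* (0.268) and miR-23b (0.281), with a median of 1.13. For miR-148a, miR-130b (0.204), miR-24 (0.247) and miR-532-5p (0.263) were nearest, with a median of 0.998 over 197 arms. With 4 libraries these distances describe this set only.

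Other miRNAs linked with DNA methyltransferase mRNAs, such as the miR-29 family against Dnmt3a and Dnmt3b, formed a list of 10, of which 9 were tested, 6 above and 3 below 0 and 0 called. Their median log2 fold change was 0.22, beside -0.01 for all arms. The 4 with the smallest p were miR-101b, at 692 ± 100.1 CPM with thapsigargin and 241 ± 124 CPM in controls (SD, n = 2 each), miR-101a at 1395 ± 196 against 737 ± 377 CPM, miR-143 at 148701 ± 1969 against 82924 ± 11514 CPM, and miR-342-3p at 75.7 ± 48.0 against 138 ± 33.9 CPM. Of 6 miRNAs encoded within Hox clusters, 3 were above and 3 below 0, 0 were called, and the median was -0.09. The most abundant of them, miR-10b, had 562029 ± 263928 CPM with thapsigargin and 441742 ± 265214 CPM in controls (SD, n = 2 each). By smallest p, the fitted log2 difference was -1.2 (SE 1.42) for miR-615-5p, -0.42 (SE 0.51) for miR-615-3p, 0.41 (SE 0.55) for miR-196a and 0.35 (SE 0.63) for miR-10b. Neither list had a member with an edgeR adjusted p under 0.89.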

How the data were processed

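Small RNA was sequenced from 2 thapsigargin and 2 control NIH-3T3 samples. Per the labels' protocols, RNA was isolated with TriZol and libraries were made with the TruSeq small RNA kit. CASAVA 1.8.1, cutadapt, Bowtie, DESeq 1.4.1 and the mouse build mm9 are named in the submitters' processing notes. The authors deposited whole-number counts of each distinct read per library, from which counts per arm were summed here. Per the file headers, a further deposited table gives the authors' log2 differences and p-values. The notes list DESeq while its column names match edgeR output, so its tool is unsettled.

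Arms were tested in edgeR 4.0.16 (R 4.3.3; quasi-likelihood, two-sided, TMM, robust, filterByExpr with a minimum count of 10, Benjamini-Hochberg over 310 arms). The untested arms held 2672 reads. TMM factors were 1.11 and 0.712 with thapsigargin and 1.40 and 0.900 in controls, and the biological coefficient of variation was 0.447. Usage within 22 seed families and 78 hairpins was tested with edgeR's diffSpliceDGE. On simulated data it also called 4 of 45 hairpins and 3 of 11 seed families that had not been changed. The exact permutation tests and the exact binomial and Poisson intervals (95%) used scipy 1.17.1. DESeq2 1.42.0 was an alternative. Read ends were placed on RefSeq hairpins (GRCm38.p6), and 463 of 628 arm names matched RefSeq. Reads matching more than 1 miRNA were left out. The deposited mature summary of thapsigargin replicate 2 was not used.

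Members, lists and tests were chosen with earlier results of these data known. All 6 family arms were named, with up to 4 members of the methyltransferase and Hox lists by smallest p and the 3 most similar arms. The named reads are up to 3 commonest per arm.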

Additional observations from a re-analysis of the deposited data

Results flagged for a closer look

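A summary of mature counts deposited for thapsigargin replicate 2 enters no comparison. It gives miR-148a 2278 reads, where the read table of the same library gives 8. Next to it, miR-148b has 593 reads there and miR-152 has 6, where the read table gives 1803 and 244. In that summary miR-148a would hold 79.2% of the family, miR-148b 20.6% and miR-152 0.209%. Only 15 of its 395 names have the count of the read table. For the other libraries the counts agreed for 369 of 369 names in thapsigargin replicate 1, 363 of 364 in control replicate 1 and 348 of 348 in control replicate 2. Groups of 2 libraries are too small for the search for single deviating samples.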

How the results depend on the processing

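Of 207 values recomputed under alternatives, 172 kept their direction, with their call in model tests, or their count of calls. Another 28 changed direction, and 7 were counts of calls that changed or differences that became 0. No family arm was called under any of them. When single libraries were left out, the arms called numbered 0 to 3 and the hairpins called by arm ratio 0 to 2. The 3 arms, miR-671-5p, mir-196a-1* and mir-503*, and the hairpins mir-671 and mir-196a-1 were called without control replicate 2, and the hairpin mir-99b without thapsigargin replicate 1. Over the same fits the log2 change was -0.48 to 0.52 for miR-148b* over miR-148b, -0.028 to 0.059 for miR-148b and -0.40 to 0.13 for miR-152 over their seed family, and -0.29 to 0.56 for the level of miR-152*. The share difference ranged from -1.36 to 3.75 percentage points for miR-148b and from -3.99 to 1.27 for miR-152. Mean length differed by -1.02 to 0.103 nt for miR-148a, -1.04 to 0.475 nt for miR-148b and -0.0499 to 0.239 nt for miR-152. Reads at the RefSeq start differed by -100 to 0 percentage points for miR-148a and -99.9 to 0.0818 for miR-152, and tailed miR-148b reads by -2.59 to 19.7.

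Scaling by total reads put miR-152* at -0.34, where the median of all arms was -0.36. Without the filter 3 of 628 arms (0.478%) were called, namely miR-216a*, miR-217 and miR-671-5p. With control replicate 1 reads shortened, the log2 change over the seed family was -0.019 for miR-148b and 0.10 for miR-152. The share difference was then -0.994 percentage points for miR-148b and 0.828 for miR-152. Mean length differed by 0.0404 nt for miR-148a and 0.20 nt for miR-148b, and reads at the RefSeq start by 0 and 0.0282 percentage points for miR-148a and miR-152. Among reads without mismatch to the RefSeq hairpin the share difference was 3.0002 percentage points for miR-148b, -3.98 for miR-152 and 0.975 for miR-148a. With reads of 20 to 24 nt only, the share difference was -0.805 for miR-148b and 0.628 for miR-152. Except where a setting itself removes or shortens reads or libraries, the cause was not tested.

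With the replicate number as a block, 0 arms were called, and the log2 fold changes were -0.39 for miR-148b, -0.55 for miR-152 and 0.65 for miR-148a. Same-numbered libraries deviated together with a correlation of 0.568, but 2 pairs do not establish a pairing. The block together with the shortened reads, chosen after seeing the data, called 6 arms, none of the family, and gave -0.018 for miR-148b and 0.065 for miR-152 over the seed family. Depth limits miR-148a, at 8 to 17 reads, and miR-148a*, at 0.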
